A study of Mus musculus with 4 samples.

Results

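The levels of 8 long noncoding RNA genes known from neurons and retina were followed in the mouse retina: Malat1, Neat1, Miat, Tug1, Snhg11, and the imprinted neighbours Meg3, Rian and Mirg. They were chosen by name, and all 8 were found among the 52636 genes of the deposited table and among the 16833 genes tested. Retinal RNA came from 3-week-old Q344X mice (n = 2 libraries) and from WT mice of the same age (n = 2 libraries). The Q344X mutation causes a dominantly inherited form of retinitis pigmentosa, in which rod photoreceptors degenerate. The study began with more animals, and its design text says that samples with poor RNA or outlying values were dropped. The sources used here do not give how the allele was made, the number of copies, sex or litter. RNA was selected for poly(A) tails and no sorting of cells is named, so the libraries mix the cell types of the retina. The question was whether these RNAs differ in level between the mutant and the normal retina.

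Long noncoding RNAs act as RNA and are not translated. Malat1 gathers in nuclear speckles, the compartments where splicing factors are stored, and Neat1 is the scaffold of paraspeckles, nuclear bodies that hold RNA-binding proteins and edited RNAs. Miat, also called Gomafu or RNCR2, forms separate spots in neuronal nuclei and affects retinal cell fate in the mouse. Tug1 was first found as a taurine-induced RNA of the newborn mouse retina and is needed there for photoreceptors to form normally. Snhg11 is a neuron-enriched host of small nucleolar RNAs (snoRNAs, guides for RNA modification). Meg3, Rian and Mirg lie in a row in the Dlk1-Dio3 domain and are transcribed from the maternal chromosome. Meg3 is a long RNA in its own right, Rian carries snoRNAs and Mirg carries microRNAs.

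As estimated from the steps of the normalized values, the libraries held 19034261 and 19346580 reads in genes for Q344X replicates 1 and 2, against 18452679 and 19706573 for WT replicates 1 and 2. In Q344X replicate 1 and WT replicate 2 the step is close to 1, so the estimate is less sure there. Replicate numbers follow the order of the samples and pair nothing across genotypes. The summed level of 10 rod markers was 371858 and 427917 in Q344X, against 953250 and 1082546 in WT, and 3 of the 10 fell. The 12 ganglion cell markers summed to 32311 and 36709 in Q344X, against 18284 and 20368 in WT, and 5 of the 12 rose. No marker of these lists or of the lens list was at 0 in every library. The 10 lens markers were far lower in 1 library, at 223416 and 6180.15 in Q344X, against 218549 and 264656 in WT, so each RNA is also given without Q344X replicate 2. The part of cell makeup and lens tissue in the results below was not tested. In whole retina, fewer cells of a type and less RNA per cell cannot be told apart.

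Of the 8 RNAs, 1 fell in Q344X (Neat1), none rose, and 7 did not pass an adjusted p of 0.05 (limma, Benjamini-Hochberg over all genes tested). Over all tested genes 9.1% fell and 5.46% rose, 14.6% in all, so 1 of 8 is close to the background. Of the 8, 4 had an unadjusted limma p under 0.05 (Neat1, Tug1, Rian and Miat), as had 5833 of the 16833 genes. The values of the 2 genotypes did not overlap for 5 RNAs, with Rian and Miat higher in Q344X and Malat1, Neat1 and Tug1 lower, but 63.1% of all tested genes were likewise without overlap, 31.4% higher and 31.7% lower in Q344X. The median log2 fold change of the 8, Q344X over WT, was -0.03, beside 0.02 over all tested genes. Together the 8 RNAs made up 0.417% and 0.236% of the normalized counts of the Q344X libraries and 0.443% and 0.250% of those of the WT libraries. Their summed level thus differed more between replicates of 1 genotype than between genotypes.

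**Figure D1:**
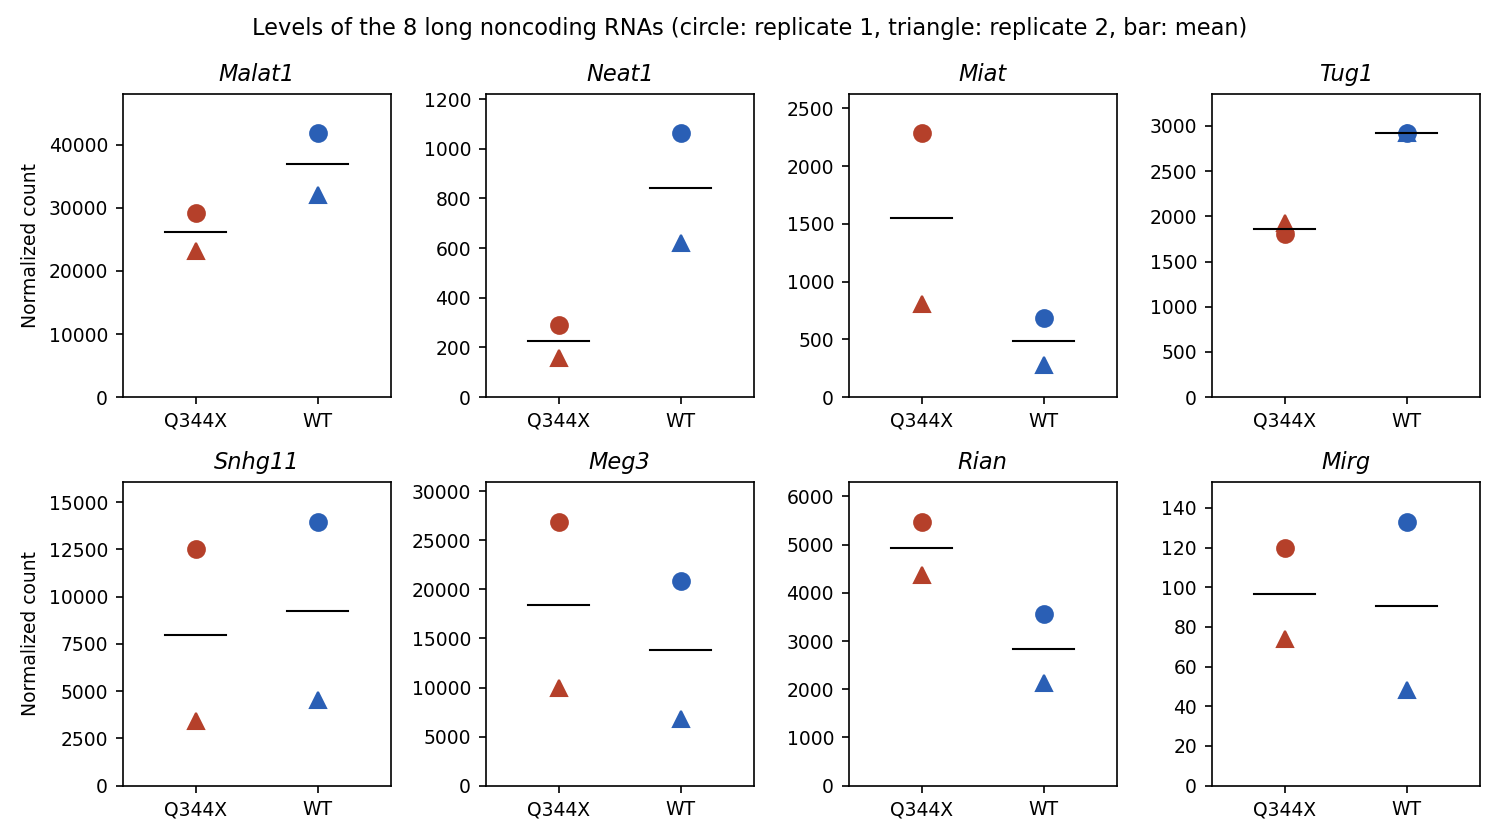
Normalized counts of each RNA on a linear axis from 0, 1 point per library (circle, replicate 1; triangle, replicate 2), with Q344X left of WT and bars at the means. The genotypes are apart for Malat1, Neat1, Miat, Tug1 and Rian, whereas Snhg11 ran from 3410.2 to 13966 and Meg3 from 6812 to 26902 with both genotypes across the range.

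Levels were compared between RNAs per kilobase of annotated exon. Malat1 was highest in both genotypes, at 3748 ± 610.4 normalized counts per kilobase in Q344X and 5284 ± 997 in WT (SD, n = 2 each). Meg3 and Snhg11 came next, at 1019 ± 663 and 934 ± 754 in Q344X and at 765 ± 549 and 1085 ± 784 in WT, and the libraries of these 2 RNAs overlapped in both genotypes. Rian and Tug1 followed, with Rian above Tug1 in Q344X (270 ± 43.3 against 192 ± 8.76, SD, n = 2) and below it in WT (156 ± 55.2 against 300.02 ± 0.0334). Miat was at 166 ± 112 per kilobase in Q344X and 52.1 ± 30.9 in WT, and its Q344X libraries overlapped those of Tug1. Neat1 was at 10.9 ± 4.52 in Q344X and 40.5 ± 15.1 in WT, and Mirg at 13.3 ± 4.45 in Q344X and 12.4 ± 8.24 in WT. These last 2 were thus not abundant in either genotype. The length used for Neat1, 20.771 kb, includes its long isoform, so the value per kilobase would be higher over the short isoform alone.

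Neat1 had 292 and 159 normalized counts in the Q344X libraries, against 1063 and 619.6 in the WT libraries. Both mutant libraries lay below both normal ones, and within each genotype replicate 1 was the higher library. The log2 fold change was -1.91 ± 0.38 (SE), or a WT mean 3.73 times the Q344X mean (limma, adjusted p = 0.0303). Leaving out Q344X replicate 2 gave -1.47 (limma, adjusted p = 0.00202), and with any single library left out the change stayed between -2.34 and -1.47 and past the threshold. Rod markers, given above, were lower in the same libraries, and their part in the value was not tested. Testing every gene with a value above 0, which puts 30816 genes into the adjustment, ended the call, with the same fold change and a limma adjusted p of 0.0932. The gene lies on chr19:5824708-5845478 (GRCm38, minus strand). Its short isoform ends in a poly(A) tail and the long isoform, the one that builds paraspeckles, does not, and the counts do not separate the 2 isoforms. The coding neighbour Frmd8, 4.22 kb away, had a log2 fold change of -0.38 ± 0.21 and did not pass (limma, adjusted p = 0.248).

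Malat1, on the same chromosome at chr19:5795690-5802672 (minus strand), had 29184 and 23156 normalized counts in Q344X, against 41819 and 31973 in WT. All 4 values lay within a factor of 2, with both mutant libraries below both normal ones. The log2 fold change of -0.49 ± 0.23 (SE) did not pass (limma, adjusted p = 0.192), and was -0.33 without Q344X replicate 2. As a fraction of Malat1, Neat1 stood at 1.0% and 0.688% in Q344X, against 2.54% and 1.94% in WT. This ratio was lower by 1.41 on the log2 scale in Q344X, with no overlap, and its exact two-sided permutation p was 0.333, the smallest that 2 against 2 libraries allow. The 2 nuclear RNAs of this locus thus differed unequally between the genotypes in these libraries. The mature 3′ end of Malat1 is cut by RNase P and carries no poly(A) tail. The transcript holds an encoded run of A close to its 3′ end, and the sequence is shown for that run (in capitals), 60 bases (6650 to 6709) of the GENCODE transcript Malat1-201 on GRCm38.
Malat1-201: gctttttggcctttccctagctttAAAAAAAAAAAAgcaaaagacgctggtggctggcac
The run has 12 A and is followed by 298 further bases of the annotated transcript. The annotation does not mark where RNase P cuts, so these bases need not belong to the mature RNA. Of 10155 annotated long noncoding genes, 4.98% hold a run of at least 12 A in their longest transcript. The longest run is of 16 A in Meg3-209, 15 in Rian-201 and 7 in Neat1-201, so the run of Malat1 is not the longest of the set. No direction of capture can be read from these letters.

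Miat had 2286 and 808 normalized counts in Q344X, against 687 and 282 in WT. Both mutant libraries were above both normal ones, but the lower mutant library was near the higher normal one, and the replicates of each genotype differed 2.83-fold in Q344X and 2.44-fold in WT. The log2 fold change was 1.62 ± 0.60 (SE), from means of 1547 ± 1045 in Q344X and 485 ± 287 in WT (SD, n = 2 each), and it did not pass (limma, adjusted p = 0.119). It passed when a single library was left out, at 2.37 without Q344X replicate 2 (limma, adjusted p = 0.000145) and at 2.27 without WT replicate 1 (limma, adjusted p = 0.00595), and not without either of the other libraries (0.88 and 0.98). The size and the call of Miat thus rested on which libraries entered. Ganglion cell markers, given above, were higher in both mutant libraries as well. The summed markers of bipolar cells, amacrine cells and pigment epithelium were also higher in both, and those of Müller glia were not. The part of these cell types in the value was not tested. Miat lies on chr5:112213228-112229395 (GRCm38, minus strand). Its only close coding neighbour, the lens crystallin gene Cryba4 at 17.1 kb, followed the lens markers and not Miat, with 11567 and 166 normalized counts in Q344X and 7057 and 11749.8 in WT.

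Miat RNA is known for repeats of UACUAAC, the branch point sequence bound by splicing factor SF1. They are shown in capitals, as DNA letters, in 120 bases (5510 to 5629) of the GENCODE transcript Miat-205 on GRCm38.
Miat-205: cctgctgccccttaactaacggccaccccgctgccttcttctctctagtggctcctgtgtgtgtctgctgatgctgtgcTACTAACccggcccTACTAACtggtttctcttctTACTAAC
This stretch holds 3 of the 6 exact matches of TACTAAC in the transcript (searched on the transcript strand only). At least 1 match was present in 3.68% of 10155 annotated long noncoding genes, and in 18.7% of the 139 whose longest transcript has at least 5 kb. No long noncoding gene had more than 6. Among the other 7 RNAs, Neat1 had 1 match and the rest none. Celf3, an RNA-binding protein of neurons that also binds Miat in the mouse, rose in Q344X, with 3224 and 2865 normalized counts in Q344X and 1670.2 and 1753 in WT (log2 fold change 0.83 ± 0.17, limma adjusted p = 0.0324), and did not pass without either WT replicate (limma, adjusted p = 0.241 and 0.165).

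Tug1 had 1804 and 1924 normalized counts in Q344X, against 2920.2 and 2920.7 in WT. It was the most even of the 8 RNAs within a genotype, and the mutant libraries lay below the normal ones. The log2 fold change of -0.65 ± 0.17 (SE) fell just short of the threshold (limma, adjusted p = 0.0525). It passed under scaling to the 75th percentile (-0.71, limma adjusted p = 0.0407), under quantile normalization (-0.72, limma adjusted p = 0.0403) and without Q344X replicate 2 (-0.69, limma adjusted p = 0.0444). Tug1 lies on chr11:3639785-3649673 (GRCm38, minus strand) and overlaps Morc2a, a gene on the opposite strand. Morc2a had 2660.1 and 2017 normalized counts in Q344X and 1546 and 1492 in WT, a log2 fold change of 0.61 ± 0.20 (limma, adjusted p = 0.0934). The library kit keeps strand, but the sources used here do not say whether the counting did, so reads of this pair may not have been told apart. Of the next coding genes, Smtn (a smooth muscle cytoskeleton protein) rose by 0.97 and Osbp2, an oxysterol-binding protein, fell by 0.82 on the log2 scale (limma, adjusted p = 0.0395 and 0.0465).

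Snhg11 varied most between replicates. It had 12502 and 3410.2 normalized counts in Q344X, against 13966 and 4518 in WT, so that replicate 1 exceeded replicate 2 by 3.67-fold in Q344X and by 3.09-fold in WT. Each genotype had 1 high and 1 low library, the genotypes overlapped, and the log2 fold change of -0.28 ± 0.74 (SE) did not pass (limma, adjusted p = 0.813). Its direction turned with the libraries kept: it was 0.65 without Q344X replicate 2 and 0.53 without WT replicate 1, against -1.10 without WT replicate 2 and -1.22 without Q344X replicate 1, the last past the threshold (limma, adjusted p = 0.0199). No direction can be given for Snhg11 from these data. It lies on chr2:158375638-158386145 (GRCm38, plus strand), where GENCODE lists it as protein coding, and an annotated snoRNA inside it (Gm25129) showed the same order, with 16.8 and 0.96 normalized counts in Q344X and 18.7 and 2.01 in WT.

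The imprinted RNAs came next. Meg3, at chr12:109541001-109571726 (GRCm38, plus strand), had 26902 and 9945 normalized counts in Q344X, against 20856 and 6812 in WT. The genotypes overlapped, with 1 high and 1 low library each, a 2.70-fold difference within Q344X and 3.06-fold within WT. The log2 fold change was 0.46 ± 0.65 (SE; limma, adjusted p = 0.651). It was 1.17 without Q344X replicate 2 and 1.26 without WT replicate 1, against -0.26 without Q344X replicate 1 and -0.35 without WT replicate 2, so that its sign depended on the libraries kept. Rian, downstream at chr12:109603940-109661716, had 5477 and 4361 normalized counts in Q344X, against 3554 and 2131 in WT. All mutant values were above the normal ones, and the log2 fold change of 0.83 ± 0.29 (SE) did not pass (limma, adjusted p = 0.102). It passed without Q344X replicate 2 (0.99, limma adjusted p = 0.0181) and after a loess correction for exon length and GC share (0.91, limma adjusted p = 0.0221).

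Mirg, at chr12:109729764-109749460, had 119.8 and 73.9 normalized counts in Q344X, against 133 and 48.1 in WT, with overlap. Its log2 fold change was 0.23 ± 0.52 (SE; limma, adjusted p = 0.784), and -0.12 without Q344X replicate 1, -0.50 without WT replicate 2, 0.57 without Q344X replicate 2 and 0.95 without WT replicate 1. Each of the 3 RNAs was therefore higher in replicate 1 than in replicate 2 in both genotypes, and none differed by genotype past the threshold.

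The 3 RNAs are commonly described as parts of 1 long transcription unit, so their ratios were compared within each library. Rian stood at 20.4% and 43.9% of Meg3 in Q344X, against 17% and 31.3% in WT. The ratio differed more within a genotype than between genotypes (log2 difference 0.37, exact two-sided permutation p = 0.667), and its sign turned without WT replicate 1 (-0.066) and without Q344X replicate 2 (-0.18). Mirg stood at 0.445% and 0.743% of Meg3 in Q344X and 0.638% and 0.707% in WT (log2 difference -0.23, exact permutation p = 1), and the difference was 0.15 without Q344X replicate 1. Relative to Rian, Mirg was at 2.19% and 1.69% in Q344X, against 3.75% and 2.26% in WT, without overlap (log2 difference -0.60, exact permutation p = 0.333, the smallest possible). Meg3 thus varied between replicates by more than Rian did, in both genotypes.

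The promoter of Meg3 is shown because it is the start of this row of RNAs and holds several textbook promoter elements in 300 bases. The sequence is from RefSeq (GRCm38.p6), chr12:109540746-109541045 on the plus strand, with the matches in capitals.
Meg3 promoter: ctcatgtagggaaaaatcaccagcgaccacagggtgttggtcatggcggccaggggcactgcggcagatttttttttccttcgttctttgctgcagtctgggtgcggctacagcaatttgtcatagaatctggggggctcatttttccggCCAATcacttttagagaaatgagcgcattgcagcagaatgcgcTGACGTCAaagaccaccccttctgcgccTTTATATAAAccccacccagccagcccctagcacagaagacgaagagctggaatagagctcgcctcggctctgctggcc
Searched on both strands, it held the cAMP response element TGACGTCA at -57 from the annotated start, CCAAT at -100 and TATAAA at -25, the last overlapping a match on the other strand at -29. Of the 32851 promoters in the table, 1.79% hold TGACGTCA, 37.4% CCAAT and 13.6% TATAAA. The windows of Rian and Mirg hold neither TGACGTCA nor TATAAA. The Rian window has 0 CG dinucleotides, against 13 in that of Meg3 and 10 in that of Mirg. The Mirg window, chr12:109734731-109735030, lies inside the gene as placed above and covers the mature mmu-miR-668-5p. It is not the start of that gene, so its letters are not read as those of a promoter. Across the other RNAs, CG dinucleotides numbered 37 for Tug1, 25 for Miat, 21 for Snhg11 and 10 for Malat1. The windows of Tug1 (chr11:3648765-3649064) and Miat (chr5:112228899-112229198) also lie inside those genes as placed above. Their counts are likewise not read as those of promoters. A RefSeq window was matched for 7 of the 8, all but Neat1, and Meg3 has a further annotated start.

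Between the start of Meg3 and the end of Mirg, the RefSeq table places 60 microRNA genes with 111 mature microRNAs: 14 of the genes lie in Mirg, 3 in Rian and 2 in Meg3. A pair of mature microRNAs from Mirg shares its seed (bases 2 to 8, in capitals), the part that pairs with targets, and is shown as an example of what Mirg carries.
mmu-miR-453: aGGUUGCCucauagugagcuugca
mmu-miR-496a-5p: aGGUUGCCcaugguguguuca
Of the 102 distinct seeds of the region, 10 were shared by 2 microRNA genes. Poly(A)-selected libraries do not measure mature microRNAs, and the deposited table held next to nothing for these genes: 39 of 69 annotated microRNA genes and 18 of 23 snoRNA genes of the domain were at 0 in every library. The 92 together summed to 75.2 and 17.3 normalized counts in Q344X and to 60.3 and 29.1 in WT, again with replicate 1 above replicate 2. Mir453 had 4.95 and 0 in Q344X and 3.12 and 0 in WT.

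**Figure D2:**
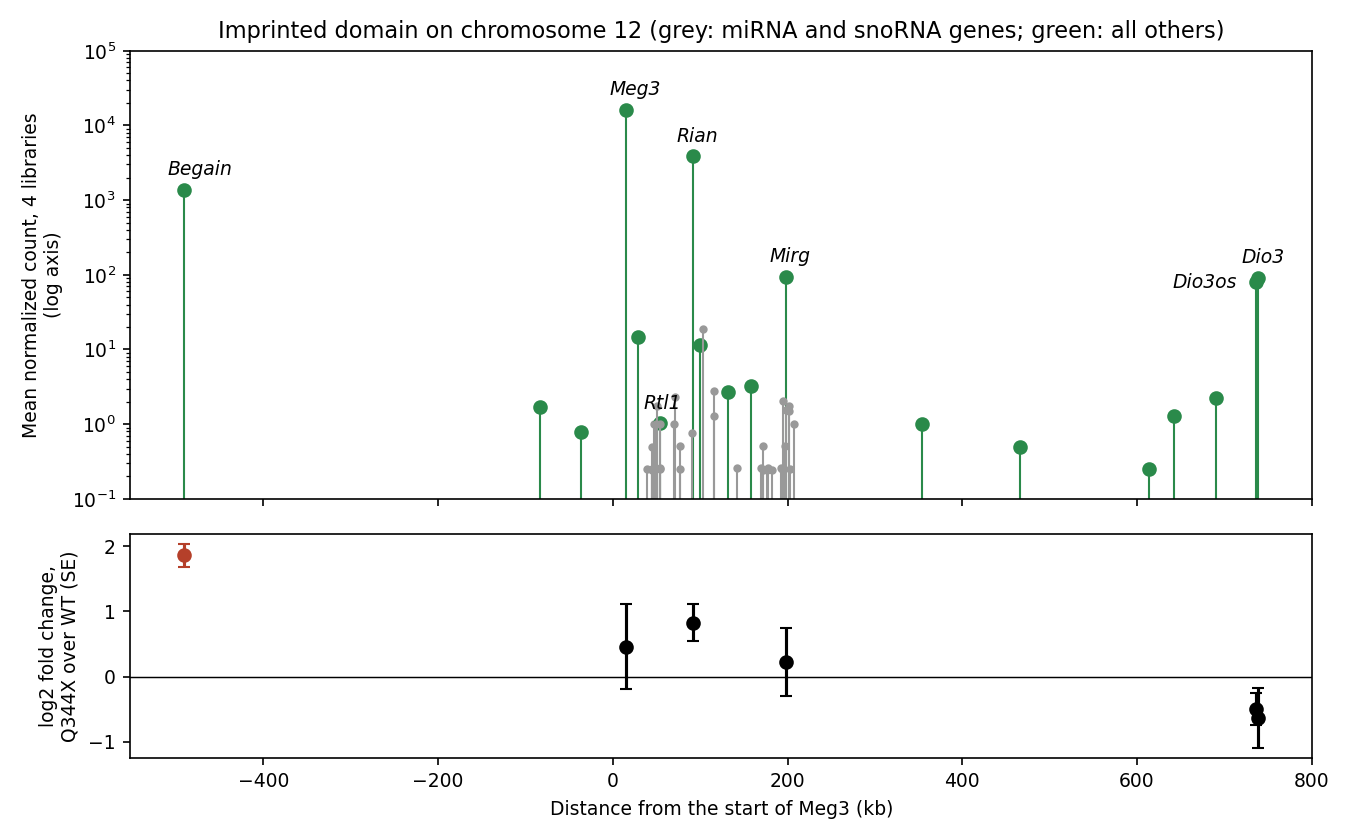
Genes of the Dlk1-Dio3 domain against distance from the start of Meg3 in kilobases: mean normalized count on a log axis (genes at 0 not drawn), and log2 fold change with SE of 6 named genes. Begain stands apart on the fold change axis at 1.86, while Meg3, Rian and Mirg lie between 0.23 and 0.83.

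A list of 7 other tested genes of the domain and its flanks, besides the 3 RNAs, had a median log2 fold change of -0.16. It leaves out Gm26906, which overlaps Meg3, and Gm26945 and Gm23600, which overlap Rian. Their log2 fold changes were 1.09, -0.73 and 0.36, none past the threshold. In the list of 7, 1 gene rose. That gene was Begain, which codes for a protein of the postsynaptic density, with 2109 and 2215 normalized counts in Q344X, against 633 and 560.5 in WT. The mutant libraries were about level with each other and well above the normal ones (log2 fold change 1.86 ± 0.18, limma adjusted p = 0.00574). Begain lies upstream of Meg3 on the other strand. Dio3 (an enzyme that inactivates thyroid hormone) had a log2 fold change of -0.63 ± 0.46 and its antisense neighbour Dio3os of -0.49 ± 0.25, neither past the threshold (limma, adjusted p = 0.365 and 0.217). The paternally expressed Dlk1 and Rtl1 were near 0 and not tested: Dlk1 had 1.98 and 4.8 normalized counts in Q344X and 0 in both WT libraries, and Rtl1 had 0 in both Q344X libraries and 3.12 and 1.0 in WT.

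**Figure D3:**
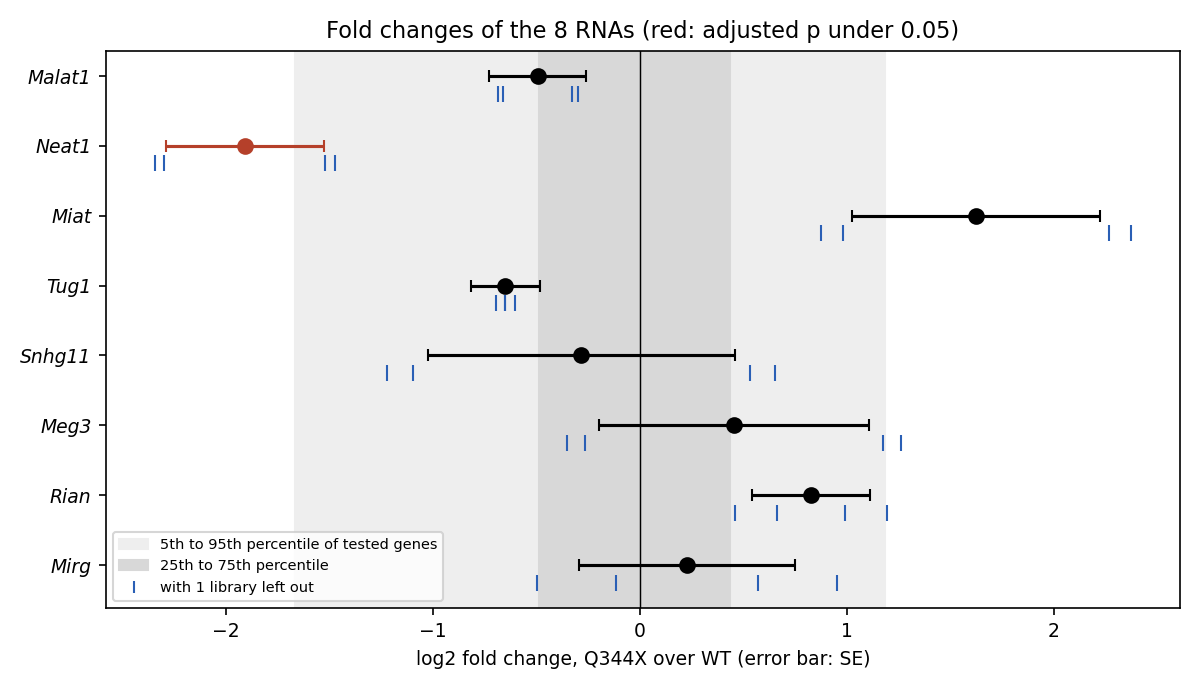
Log2 fold changes of the 8 RNAs, Q344X over WT, with SE bars, over grey bands for the spread of all tested genes; blue ticks give the value with 1 library left out. Neat1 lies at -1.91 outside the wider band, and the ticks of Snhg11, Meg3 and Mirg fall on both sides of 0.

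The replicate differences were set against those of all genes. In both genotypes 7 of the 8 RNAs (all but Tug1) were higher in replicate 1 than in replicate 2, beside 35.9% of all tested genes (49.4% in Q344X alone and 47.8% in WT alone). A difference of at least 1 on the log2 scale in both genotypes was seen for Snhg11, Meg3 and Miat, and for 217 genes or 1.29% of those tested. Of these 217, 25.8% were annotated as long noncoding, beside 8.48% of all tested genes. Among them, 11 had a mean of at least 1000 normalized counts, including Pfkp (a glycolytic phosphofructokinase), Ogt (the enzyme that adds O-GlcNAc to proteins) and Gria2 (a glutamate receptor subunit). Ogt, for instance, had 9467 and 3472 normalized counts in Q344X and 11771 and 5506 in WT. Across all 16833 genes the 2 replicate differences correlated with r = 0.478, given as a description over genes that share libraries.

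Over all tested genes, the median replicate difference was highest in the longest genes in both genotypes. The 217 genes that differed by at least 1 in both genotypes were not long as a set. Their median was 2.605 kb of exon, beside 4.106 kb over all tested genes. Genes with at least 7 kb of exon had a median log2 difference, replicate 1 minus replicate 2, of 0.29 in Q344X and 0.10 in WT. Those of 1 to 2 kb had -0.31 in Q344X and -0.14 in WT, and those under 1 kb had -0.28 and -0.02. In WT, genes of 4 to 7 kb were also at -0.02, so the WT median did not rise steadily with length. The 8 RNAs have 6.98 kb (Malat1) to 20.8 kb (Neat1) of annotated exon. Within this range Snhg11, Meg3 and Miat differed by 1.28 or more in both genotypes, and Tug1, with 9.73 kb, by -0.09 in Q344X and by less in WT. The part of length and of RNA quality in the replicate differences was not tested. The labels name no batch.

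**Figure D4:**
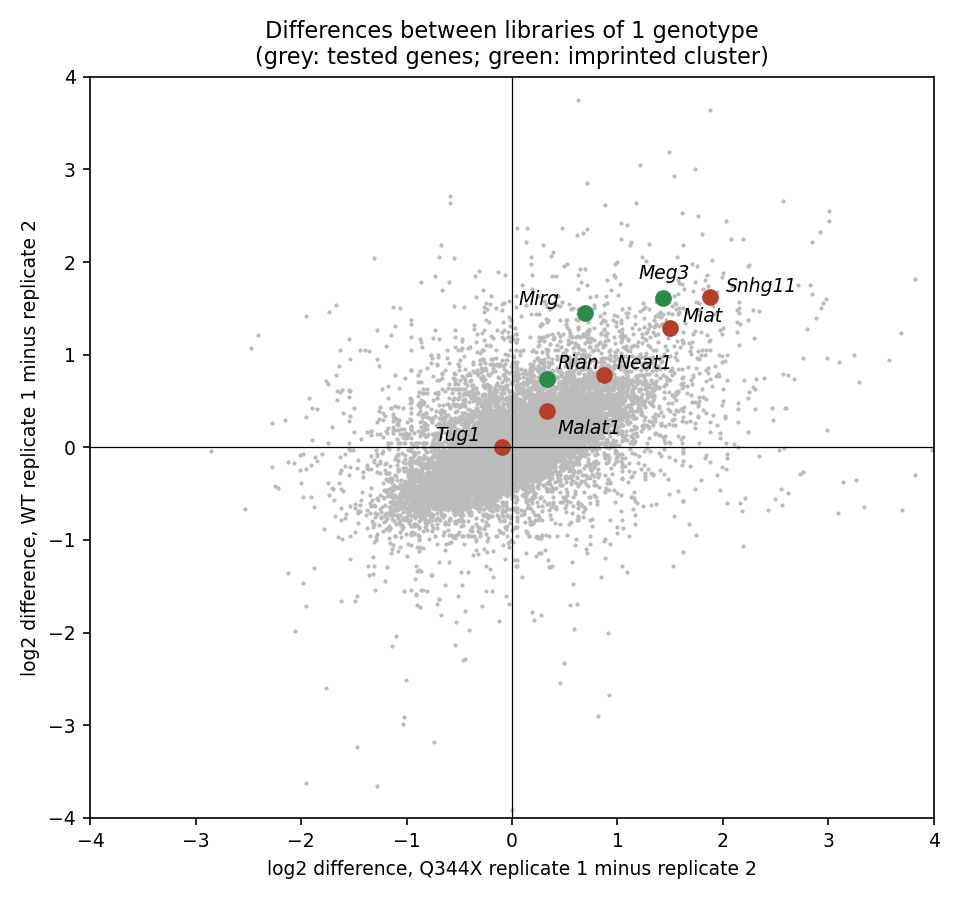
Log2 difference between replicates 1 and 2 in Q344X (x axis) and in WT (y axis), with tested genes in grey, the imprinted RNAs in green and the others in red; 40 genes lie outside the axes. All RNAs but Tug1 sit in the upper right, with Snhg11, Meg3 and Miat farthest out and Tug1 at the centre.

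Annotated long noncoding genes as a class fell more often than they rose. Of 1427 tested, 67 rose (4.70%) and 272 fell (19.1%), with a median log2 fold change of -0.33, beside 5.64% and 8.02% of 14315 protein-coding genes and a median of 0.04. Among the 35 with a mean of at least 1000, none rose by limma's adjusted p, 7 fell and the median was 0.00. Of 26 other named long noncoding RNAs, 2 rose and 2 fell. Vax2os, the antisense partner of the eye gene Vax2, fell to 1048 and 1291 normalized counts in Q344X, against 3859 and 3948 in WT (log2 fold change -1.75 ± 0.19, limma adjusted p = 0.00786), and Mir670hg fell by 1.56 (limma, adjusted p = 0.0102). The microRNA hosts Mir9-3hg and Mir22hg rose by 1.57 and 1.03 on the log2 scale (limma, adjusted p = 0.0237 and 0.0303). Neither passed without WT replicate 2 (limma, adjusted p = 0.0734 for Mir9-3hg and 0.187 for Mir22hg), and Mir22hg did not without WT replicate 1 (0.0875). Testing every gene above 0 ended both calls (limma, adjusted p = 0.0649 for Mir9-3hg and 0.0755 for Mir22hg).

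Of 21 genes tested for proteins of paraspeckles, the bodies built on Neat1, 2 rose and 1 fell, with a median log2 fold change of 0.11. Over all tested genes 5.46% rose and 9.1% fell, so these counts are not read as a trait of the list. Pspc1, a core paraspeckle protein, had 1798 and 1884 normalized counts in Q344X, against 991 and 987 in WT (0.90 ± 0.17, limma adjusted p = 0.0257). Rbm3, a cold-induced RNA-binding protein, rose by 1.30 (limma, adjusted p = 0.0260) and Hnrnph3 fell by 1.19 (limma, adjusted p = 0.0406). Among 24 nuclear speckle and splicing proteins, 3 rose and none fell, with a median of 0.34. They were the neuronal splicing regulator Ptbp2 (1.14), Celf3 (0.83) and the exon junction protein Rnps1 (0.71). Son, a scaffold of speckles, had 29972 and 15544 normalized counts in Q344X and 21264 and 13054 in WT, a split by replicate like that of Meg3. Testing all genes above 0 left 0 limma calls in both of these lists, as did leaving out WT replicate 2, and leaving out WT replicate 1 left 1 call in each. Rnps1 also missed the threshold under quantile normalization and without Q344X replicate 2 (limma, adjusted p = 0.0522 and 0.0531).

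Of 17 snoRNA host genes tested, Snhg11 and Rian among them, 3 rose and none fell, with a median of 0.59. Over all tested genes 5.46% rose and 9.1% fell. Snhg15, Snhg20 and Snhg1 rose by 1.26, 1.10 and 0.89 on the log2 scale (limma, adjusted p = 0.0246, 0.0480 and 0.0280). Snhg15 had 370.3 and 506 normalized counts in Q344X, against 179.9 and 179.5 in WT, so this host of snoRNAs was even within WT where Snhg11 was not. These 3 calls were lost when every gene above 0 was tested and without WT replicate 2, and only that of Snhg20 was left without WT replicate 1. Snhg20 also missed the threshold with a minimum mean of 50, under 75th percentile scaling and under quantile normalization (limma, adjusted p = 0.0529, 0.0622 and 0.0624). Of 29 other imprinted genes tested, 3 rose and 2 fell, with a median of -0.12, beside the same shares over all tested genes. Nnat, a paternally expressed gene of neurons, had 3075 and 4643 normalized counts in Q344X, against 807 and 825 in WT (log2 fold change 2.21 ± 0.24, limma adjusted p = 0.00789). Cdkn1c, a cell cycle inhibitor, and H19, a maternally expressed long noncoding RNA, rose by 1.19 and 1.58 (limma, adjusted p = 0.0277 and 0.0254), and Mest fell by 1.19 (limma, adjusted p = 0.0128). Without WT replicate 1 these last 3 did not pass (limma, adjusted p = 0.130 for Cdkn1c, 0.0987 for H19 and 0.0674 for Mest). Testing every gene above 0 ended the calls of Cdkn1c and H19 (limma, adjusted p = 0.0773 and 0.0682).

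**Figure D5:**
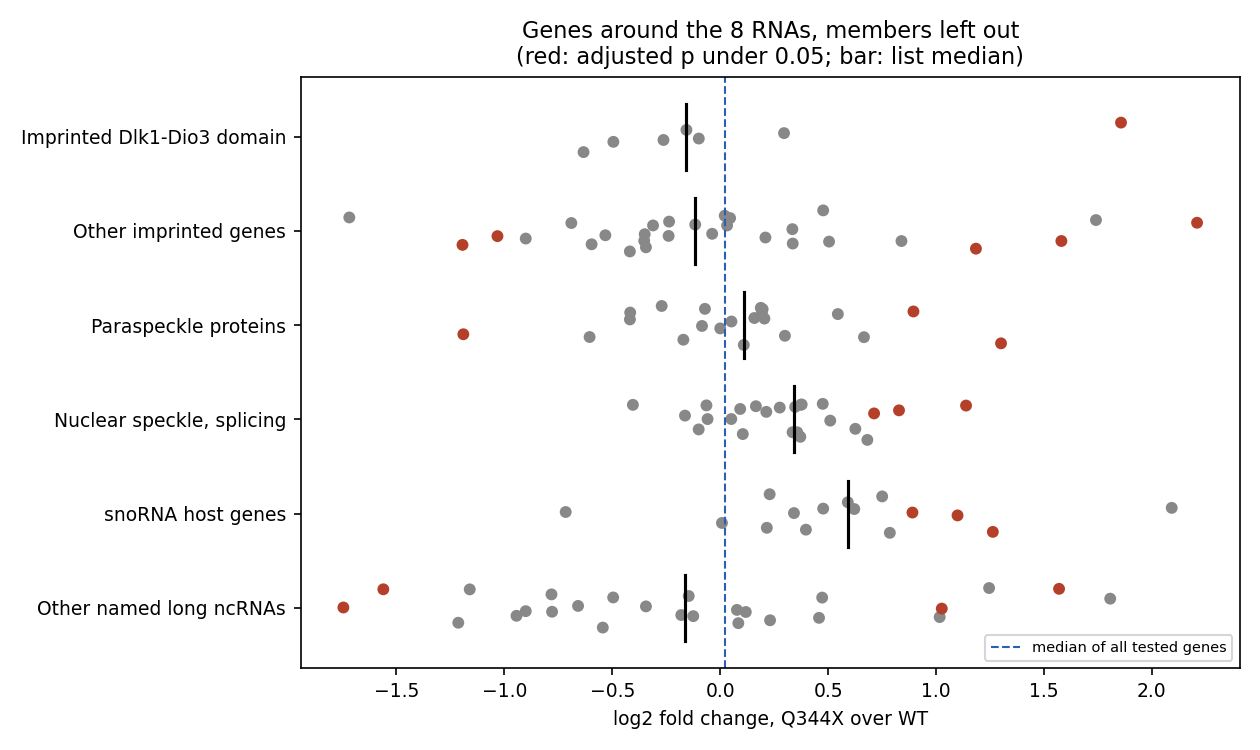
Log2 fold change of each tested gene in 6 lists around the 8 RNAs, which are left out, with calls in red and the list median as a bar. The medians run from -0.16 to 0.59, and every list except that of the Dlk1-Dio3 domain holds more than 1 call.

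For each RNA, the genes with the most similar pattern were found by the Euclidean distance between log2 values, centred over the 4 libraries, among 12287 genes with a mean of at least 50 and an ordinary symbol. Neat1 was closest to Abca8a (distance 0.15) and Col19a1 (0.18), a lipid transporter and a collagen chain that fell as well, by 2.00 and 1.84. Abca8a had 1529.55 and 885 normalized counts in Q344X, against 5787 and 3739.8 in WT, the same order of libraries as Neat1. Rian was closest to Mtmr11 (0.03) and Malat1 to Nectin4 (0.04). Miat had no neighbour as close, the nearest being Adamts19 (0.41) and Myb (0.58). Meg3 was closest to Greb1l (0.33) and Tmc7 (0.39), Snhg11 to Sbsn (0.30) and Ryr3 (0.46), and Tug1 to Fam117a and Zbed4 (0.04 each). With 4 libraries such likeness is a description only.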

How the data were processed

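Poly(A)-selected retinal RNA of 2 Q344X and 2 WT libraries was analysed. The deposited table holds a signal, counts that the authors had scaled by 1 size factor per library. The submitters' processing notes name build mm10, the aligner STAR, featureCounts, DESeq2 1.16.1, Trim Galore 0.4.4 and FastQC, without roles. The sources used here do not give annotation or strand setting. Depths were computed from the worth of 1 read in each column, of which every value was a multiple to within 0.1 (100%). For Q344X replicate 1 and WT replicate 2 this worth is near 1, where such multiples show little, so these depths are estimates and no count model was fitted.

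Symbols matched 52489 of 52636 Ensembl identifiers, and positions, types and lengths are those of GENCODE M21. In R 4.3.3, limma 3.58.1 fitted log2(value + 1) on genotype, using eBayes with trend (degrees of freedom 2 residual, 3.9 prior), in 16833 genes with a mean of at least 10. Adjustment was by Benjamini-Hochberg over these genes, two-sided, at 0.05. Fold changes understate those of low genes. The p-values measure the spread between libraries, which may be technical. Ratios were tested by exact permutation in Python 3.11.15 (scipy 1.17.1). The gene test was checked on simulated data.

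The 8 RNAs and the gene lists were chosen with earlier results of these data known. In each list up to 4 genes could be named, those past the threshold by size of change and then those with the highest mean. Dlk1, Rtl1, Dio3 and Dio3os, and Pfkp, Ogt, Gria2, Mir453 and Gm25129, were named after their values were seen. A few genes that these rules selected are not reported here. Other settings tried were a pseudocount of 0.5 or 5, testing every gene above 0 (no filter), requiring a mean of 50, quantile normalization, 75th percentile scaling, robust moderation, a loess correction for length and GC content, totals without the 8 RNAs, and omission of each library.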

Additional observations from a re-analysis of the deposited data

How the results depend on the processing

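The 919 rising and 1531 falling genes became 153 and 383 with no filter, which adjusts over 30816 genes, and ran from 388 to 2353 and from 666 to 2973 with 1 library left out. The length and GC correction gave 1781 rising genes. Among the 8 RNAs, 0 to 2 rose and 1 to 2 fell with 1 library left out. One rose (Rian, 0.91) under the length and GC correction, none fell with no filter (Neat1 at -1.91, past the threshold no more), and 2 fell under scaling to the 75th percentile and under quantile normalization, where Tug1 joined at -0.71 and -0.72. With 1 library left out, log2 fold changes ran from -2.34 to -1.47 for Neat1, 0.88 to 2.37 for Miat, -0.69 to -0.60 for Tug1, -1.22 to 0.65 for Snhg11, -0.35 to 1.26 for Meg3, 0.46 to 1.20 for Rian, -0.50 to 0.95 for Mirg and -0.69 to -0.30 for Malat1. Dync1h1 turned to 0.045 under the length and GC correction and ran from -0.47 to 0.15 with 1 library left out. Wars likewise ran from -0.28 to 0.087, Hnrnph1 from -0.65 to 0.11 and Son from -0.10 to 0.85, and none of these 4 was a call. With 1 library left out, the log2 difference of Rian over Meg3 ran from -0.18 to 0.93 and that of Mirg over Meg3 from -0.60 to 0.15. Those of Mirg over Rian and Neat1 over Malat1 kept their sign. Among the 8 RNAs and the genes that the naming rule above took from the lists, no other changed direction under the settings run. Genes named outside that rule, such as Dio3, Gria2 and Cryba4, were not followed across these settings, so their direction may depend on them. Pseudocounts, the minimum mean of 50, robust moderation and totals without the 8 RNAs moved no call of the 8. Beyond those shown, the causes were not tested. A fit without 1 library takes its residual spread from the intact pair, so its calls depend on that pair. The estimated depth of 18452679 to 19706573 reads in genes leaves RNAs such as Mirg, at 48.1 to 133 normalized counts, with the larger counting error. No paired analysis was possible because the labels give no replicate numbers shared by the genotypes.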
